A study of Mus musculus with 5 samples.

Results

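Glucocorticoids are adrenal steroid hormones, and liver cells read them through the glucocorticoid receptor, a steroid-activated transcription factor that waits in the cytoplasm in a complex with heat shock proteins and moves to the nucleus when it binds hormone. How much hormone reaches the receptor depends on a plasma carrier protein made by the liver and on an enzyme that regenerates active hormone inside the cell. In the liver the receptor drives genes of gluconeogenesis and of amino acid and lipid breakdown, together with feedback genes that limit its own signal.

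The genes described here are the receptor gene Nr3c1 and 6 others of this system, chosen by name from knowledge of the pathway: Serpina6 and Hsd11b1, which govern hormone supply, and the direct targets Fkbp5, Tsc22d3, Sgk1 and Zbtb16. Of these 7 genes, 6 had a probe on the array, with 12 probes among 41174, and Zbtb16 is not analysed here. The array's probes represented 17016 named genes in all, of which 14912 could be tested.

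The samples were liver RNA of male C57BL/6N mice that received ethanol in the diet for 8 weeks and then 3 binges of 5 g ethanol per kg, and all 5 samples (livers 1 to 5) formed 1 group. Each array set 1 liver sample, labelled with the dye Cy5, against a purchased assorted mouse total RNA labelled with Cy3, whose tissue and strain the labels give as liver and C57BL/6N. Every value below is a log2 ratio of liver over that reference or a signal of 1 channel. No value compares ethanol with a control diet, because the control groups were run in a parallel series that is not analysed here. The labels give no age, no time between the last binge and tissue collection and no hour of collection, and nothing in them ties each sample to an animal of its own. The p-values therefore cover the spread among these 5 samples alone, and that spread may be technical. The dyes were never exchanged, so any dye bias of a probe stays in its ratio, and the reference's own spread is left out.

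Over all probes, the median background-subtracted signal ranged from 78.4 to 177 for liver RNA and from 75.5 to 151 for the reference, and liver 3 had the highest and liver 1 the lowest liver value. Among 6 tested hepatocyte markers, 5 stood above the reference and none below, and their summed liver signal lay between 737000 and 803000. Of 184 probes spotted 10 times, the median SD of the log2 ratio was 0.09 between spots of 1 array and 0.17 between livers. Over all genes the median of the mean log2 ratios was -0.02, and the median SD over livers was 0.19.

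The means of all 6 members lay within 2-fold of the reference, while single livers lay far from it for some of them. Hsd11b1 and Sgk1 stood below it, by 1.37-fold and 1.25-fold, none stood above it, and none reached 2-fold. That is 2 of 6 members below in the test of each mean against 0 (limma, Benjamini-Hochberg adjusted over all genes, adjusted p below 0.05), where 12.7% of all genes were below and 14.2% above. Without liver 2 or without liver 4, neither member passed. With the 2-fold limit added, 0 of 6 members were called, where 1.27% of all genes were: 0.858% higher and 0.416% lower. The mean log2 ratio was below 0 for 5 of 6 members and for 53.1% of all genes, and the members' median was -0.38.

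**Figure D1:**
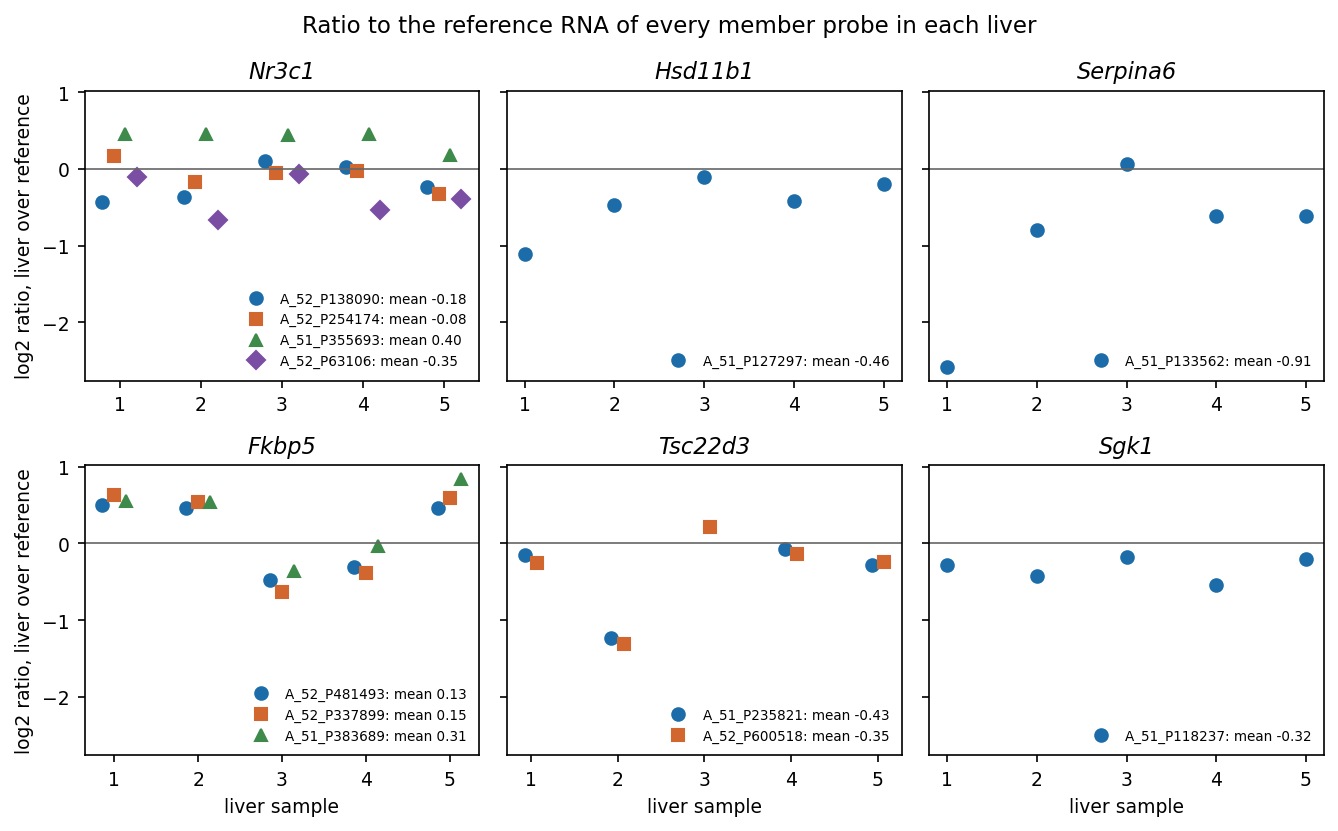
Log2 ratio of liver over reference RNA (vertical axis) in each of the 5 liver samples (horizontal axis) for the 12 probes of 6 genes. Each point is 1 probe on 1 array, symbols separate the probes of a gene, and the grey line marks equality with the reference. Serpina6 read -2.59 in liver 1 and Tsc22d3 -1.32 in liver 2, and all 3 Fkbp5 probes were higher in livers 1, 2 and 5 than in livers 3 and 4.

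Serpina6 encodes corticosteroid-binding globulin, the liver-made plasma protein that carries most circulating glucocorticoid. Its log2 ratios were -2.59, -0.80, 0.06, -0.61 and -0.61 in livers 1 to 5, a mean of -0.91 ± 0.99 (SD, n = 5). Liver 1 lay far below the others, liver 3 was level with the reference, and livers 2, 4 and 5 were close to each other. The mean did not pass the test (limma adjusted p = 0.107), and without liver 1 it was -0.49 with an adjusted p of 0.0388.

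The low ratio of liver 1 came from the liver channel of the Serpina6 probe. Its background-subtracted liver signal was 257 in liver 1 and 1190, 2670, 1250 and 1260 in livers 2 to 5, while its reference signal on the same arrays was 1800, 2090, 2200, 2430 and 2830. After both channels were normalized between arrays, the SD of the log2 signal was 0.87 in the liver channel and 0.13 in the reference channel, beside medians of 0.21 and 0.15 over all tested probes. The spot was well above background in both channels on every array, so the low value is a measured one.

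Hsd11b1 encodes the reductase that turns inactive 11-keto steroids back into active glucocorticoid and is abundant in hepatocytes. Its log2 ratios were -1.11, -0.47, -0.10, -0.41 and -0.20 in livers 1 to 5. All 5 were below 0, and liver 1 was again the lowest and liver 3 the highest. The mean was -0.46 ± 0.39 (SD, n = 5), or 1.37-fold below the reference (limma adjusted p = 0.0364). Without liver 1 the mean was -0.30 (limma adjusted p = 0.0456). The call was lost without liver 2 (adjusted p = 0.0826), without liver 4 (0.0886) and with arrays scaled to each other (0.0519). The liver signal of its probe was 2090 in liver 1 and between 4420 and 9590 in the others, and the reference signal on the array of liver 1, 4530, was also the lowest of the 5 arrays (up to 11200).

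Red blood cell markers moved with the low values of liver 1. The 3 of 4 such markers that were tested were well above background in Cy5 on all arrays, and their mean log2 ratio was -1.50 in liver 1 and between -0.70 and -0.42 in the others. Their summed liver signal was 2560 in liver 1 and between 5130 and 9550 elsewhere. The hepatocyte markers averaged 1.16 in liver 1 and between 0.50 and 1.32 in the others. Their summed liver signal was 766000 in liver 1 and between 737000 and 803000 elsewhere. The part of either list in the values of Serpina6 and Hsd11b1 was not tested. In whole-liver RNA, fewer cells of a type and less RNA per cell cannot be told apart.

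**Figure D2:**
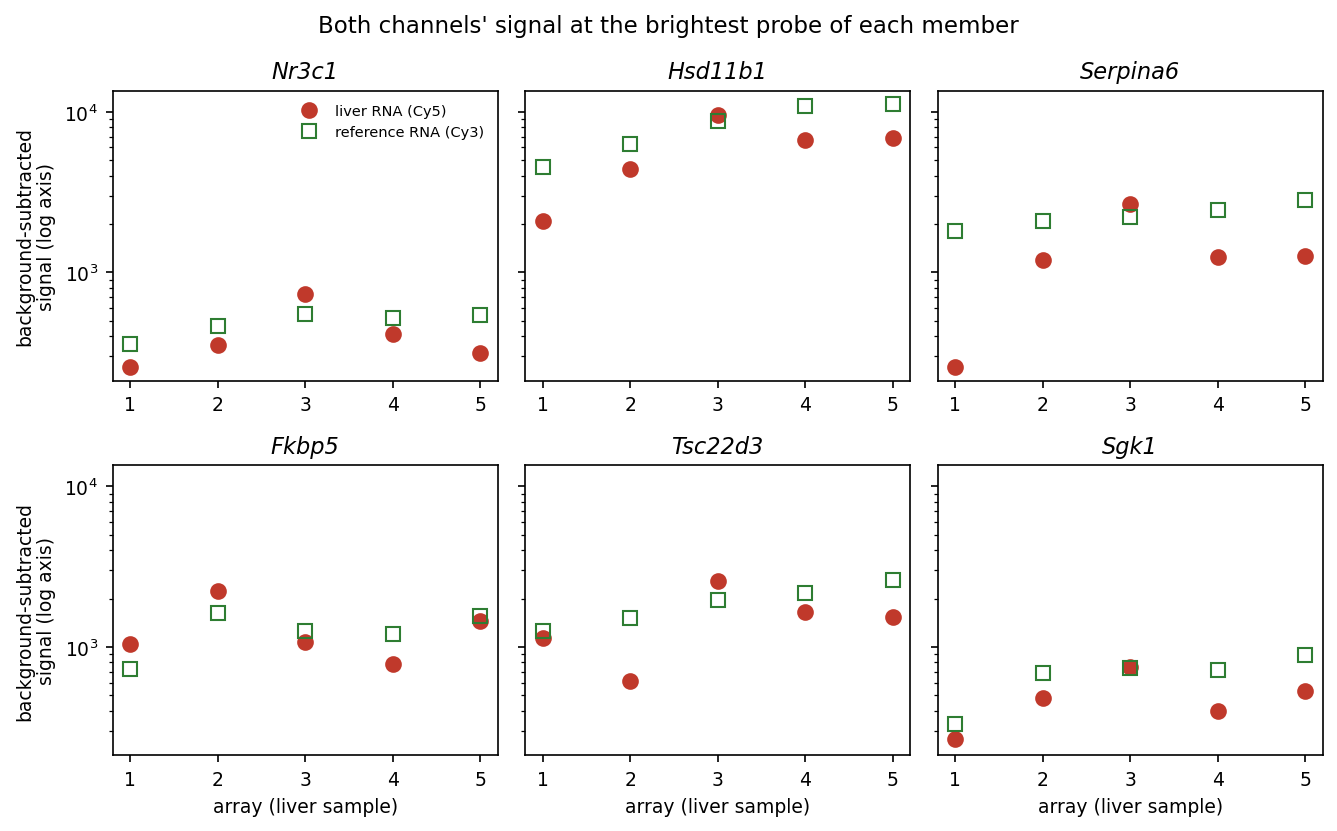
Background-subtracted signal (vertical log axis, arbitrary scanner units) of the brightest probe of each of the 6 genes on each of the 5 arrays (horizontal axis). Filled circles are liver RNA (Cy5) and open squares the reference RNA (Cy3). The Serpina6 liver signal was 257 in liver 1 against 1190 to 2670 in the others, while its reference signal stayed between 1800 and 2830.

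The receptor gene itself, Nr3c1, lay near the reference, but its 4 probes did not give 1 answer. The brightest, A_52_P138090, read -0.43, -0.36, 0.10, 0.02 and -0.23 in livers 1 to 5, a mean of -0.18 ± 0.23 (SD, n = 5, limma adjusted p = 0.192). Livers 1 and 2 were lowest and liver 3 highest at this probe. Its liver signal was 256, 354, 733, 410 and 314, and its reference signal 356, 461, 547, 523 and 546.

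Probe A_51_P355693 of Nr3c1 read 0.46, 0.45, 0.44, 0.46 and 0.18, a mean of 0.40 ± 0.12 (SD, n = 5), and stood above the reference in the fit over all probes (limma adjusted p = 0.00555). Probe A_52_P63106 read -0.11, -0.67, -0.07, -0.54 and -0.39, a mean of -0.35 ± 0.26 (SD, n = 5), and stood below it (limma adjusted p = 0.0301). Probe A_52_P254174 read 0.17, -0.17, -0.05, -0.03 and -0.33, a mean of -0.08 ± 0.18 (SD, n = 5, limma adjusted p = 0.488). So 1 probe of the gene was above the reference in all livers, another was below it in all livers, and the other two lay on both sides of 0. The call of A_52_P63106 was lost without liver 2 (0.0891), 4 (0.106) or 5 (0.0738). No direction for Nr3c1 as a gene can be drawn from these 4 probes. Over all 12 member probes, 3 were below and 1 above, where 11.6% of all 31861 tested probes were below and 16.2% above, and none of the 12 reached 2-fold, as 1.52% of all did.

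Among the direct targets, Fkbp5 split the livers into high and low. It encodes an immunophilin that joins the receptor's chaperone complex, lowers its affinity for hormone and closes a short feedback loop. The brightest probe, A_52_P481493, read 0.50, 0.46, -0.47, -0.30 and 0.46 in livers 1 to 5. Livers 1, 2 and 5 were above the reference and livers 3 and 4 below, with nothing between. The mean of 0.13 ± 0.48 (SD, n = 5) did not pass the test (limma adjusted p = 0.579), and with median centring in place of loess it turned to -0.02.

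The other Fkbp5 probes showed the same split. A_52_P337899 read 0.64, 0.54, -0.63, -0.38 and 0.60, and A_51_P383689 read 0.56, 0.54, -0.36, -0.04 and 0.85. After each probe was centred on its own mean, pairs of Fkbp5 probes differed by a root mean square of 0.12 to 0.16 over the livers. In the liver channel the normalized log2 signal had an SD of 0.64, 0.57 and 0.48 at A_52_P481493, A_52_P337899 and A_51_P383689, and in the reference channel the SD was 0.29, 0.20 and 0.07. The mean log2 ratio of the hepatocyte markers was 1.16, 1.02 and 1.32 in livers 1, 2 and 5. In livers 3 and 4 it was lower, at 0.50 and 0.94. Of the 6 tested markers, only Fgb split the livers in this way, at 1.88, 2.09, 0.03, 0.46 and 1.96. Alb read 0.78, 0.95, 1.08, 1.07 and 1.87, and Ttr 0.17, 0.07, 0.20, 0.61 and 0.09. The part of hepatocyte markers in the Fkbp5 split was not tested.

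Tsc22d3 encodes GILZ, a leucine zipper protein that carries part of the anti-inflammatory action of glucocorticoids. Its probe A_52_P600518 read -0.25, -1.32, 0.21, -0.14 and -0.24 in livers 1 to 5, a mean of -0.35 ± 0.57 (SD, n = 5, limma adjusted p = 0.203 in the fit over all probes). Probe A_51_P235821 read -0.15, -1.23, -0.08 and -0.28 in livers 1, 2, 4 and 5, a mean of -0.43 ± 0.54 (SD, n = 4, limma adjusted p = 0.136), and its spot in liver 3 was left out as non-uniform. Both probes set liver 2 far below every other liver with a value. The liver signals of A_52_P600518 were 493, 287, 1260, 883 and 768, against reference signals of 553, 792, 943, 1200 and 1260. With median centring the mean of Tsc22d3 was -0.62 (limma adjusted p = 0.0114), and without liver 2 it was -0.17 (0.219).

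Several lists of cell type markers also had their highest or lowest mean in liver 2, none of them past a test for 1 sample far from the rest. The 4 tested neutrophil markers of 6 averaged a log2 ratio of 0.83 in liver 2 and between -0.25 and 0.30 in the others, with a summed liver signal of 1790 against 916 to 1420, and 3 of the 4 were well above background in Cy5 on all arrays. The 5 of 7 lymphocyte markers with values on all arrays averaged 0.30 in liver 2 and between -0.16 and 0.12 elsewhere. The 4 of 5 stellate cell markers with values on all arrays averaged -0.64 in liver 2 and between -0.39 and -0.10 elsewhere. Among these, Col1a1 was at -1.86 in liver 2, while Des was highest there at 0.52, and the summed stellate signal in liver 2, 4170, lay within the range of the other livers (3590 to 7080). The part of these markers in the Tsc22d3 value was not tested.

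Sgk1, which encodes a kinase that regulates ion channels and transporters, had the smallest spread among the brightest probes of the members; Nr3c1 had a smaller one at A_51_P355693 (SD 0.12) and with its probes averaged (0.13). Its log2 ratios were -0.28, -0.42, -0.18, -0.54 and -0.20 in livers 1 to 5, all below 0. The mean was -0.32 ± 0.15 (SD, n = 5), or 1.25-fold below the reference (limma adjusted p = 0.0208). With processed signals or deposited ratios the mean was -0.51. Without liver 4 the adjusted p was 0.0843, and without liver 2 it was 0.05, at which the call was lost.

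The receptor binds DNA as a dimer, at inverted repeats of a short motif with a spacer between them. RefSeq promoters (GRCm38.p6, the 250 bases before a start) were at hand for 4 members, as 11 promoters of Hsd11b1, Fkbp5, Tsc22d3 and Sgk1. The full palindrome, AGAACA and TGTTCT with any 3 bases between, reads the same on both strands. It was in 3 of 32851 promoters (0.00913%) and in 1 of the 11, a promoter of Sgk1. Sgk1 alone had 6 of the 11, and only 1 of these held the match. By gene the palindrome was in 3 of 27025 and in 1 of the 4 members. The shorter form, GNACA and TGTNC with any 3 bases between, where N is any base, is part of every full one and was in 127 of 32851 (0.387%), in the same Sgk1 promoter and, among the related genes described below, in that of Mt1. The related genes had 41 promoters of 34 genes, with the full palindrome in 0 and the shorter form in 1 (2.44%). The Sgk1 and Mt1 promoters are shown because they hold the matches, which are in capitals. The Sgk1 window is chr10:21993640-21993889 on the plus strand, with the match 189 to 175 bases before the start, and the Mt1 window is chr8:94178839-94179088 on the plus strand, with the match 94 to 82 bases before the start.
Sgk1: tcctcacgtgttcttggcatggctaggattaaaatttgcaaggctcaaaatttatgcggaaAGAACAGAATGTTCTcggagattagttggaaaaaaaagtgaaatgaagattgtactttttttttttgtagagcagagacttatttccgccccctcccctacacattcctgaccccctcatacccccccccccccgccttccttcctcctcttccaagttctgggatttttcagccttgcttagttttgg
Mt1: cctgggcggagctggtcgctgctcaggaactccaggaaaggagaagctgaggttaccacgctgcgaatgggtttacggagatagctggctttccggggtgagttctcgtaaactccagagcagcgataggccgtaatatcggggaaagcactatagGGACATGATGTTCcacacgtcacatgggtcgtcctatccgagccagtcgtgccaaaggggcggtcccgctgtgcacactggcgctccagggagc
A match describes these letters only. Of the 2 genes with a match, Sgk1 had an SD over livers of 0.15, and Mt1 had an SD of 1.48.

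The members differed in how much they varied between livers. The SD of the log2 ratio was 0.99 for Serpina6, 0.57 for Tsc22d3 (A_52_P600518), 0.48 for Fkbp5, 0.39 for Hsd11b1, 0.23 for Nr3c1 and 0.15 for Sgk1. Of 12451 genes clearly detected in both channels of every array (well above background by the scanner software), 99.6% had a smaller SD than Serpina6, 97% than Tsc22d3, 94.8% than Fkbp5 and 91% than Hsd11b1, and 66.6% and 35.8% than Nr3c1 and Sgk1. Without liver 1 the SD of Serpina6 was 0.38 and that of Hsd11b1 0.17, and without liver 2 that of Tsc22d3 was 0.22, so 1 liver set most of each. For Fkbp5 the SD lay between 0.39 and 0.51 whichever liver was left out.

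When the variance of every gene was set against the prior variance that limma fits by intensity (F test, adjusted over all genes), the test called 0 members and 0 genes (694 genes, or 5.57%, had an unadjusted p below 0.05). The prior and its 4.65 degrees of freedom were fitted to the variances of these same genes. A count of 0 therefore does not show that no gene varied between livers. The adjusted p was 0.477 for Serpina6 and 0.767 for Tsc22d3, whose variances were 25.9 and 8.14 times the prior. With the prior taken as a fixed value, an alternative added after seeing the data, 4 members passed, where 10.4% of genes did: Serpina6 (limma prior, adjusted p = 3.77e-19), Tsc22d3 (4.71e-05), Fkbp5 (0.0024) and Hsd11b1 (0.0104). Nr3c1 (0.715) and Sgk1 (0.985) did not. With median centring in place of loess, the F test itself called 223 genes, Serpina6 among them (limma prior, adjusted p = 0.00718). The call thus changes both with how the prior is used and with the normalization.

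**Figure D3:**
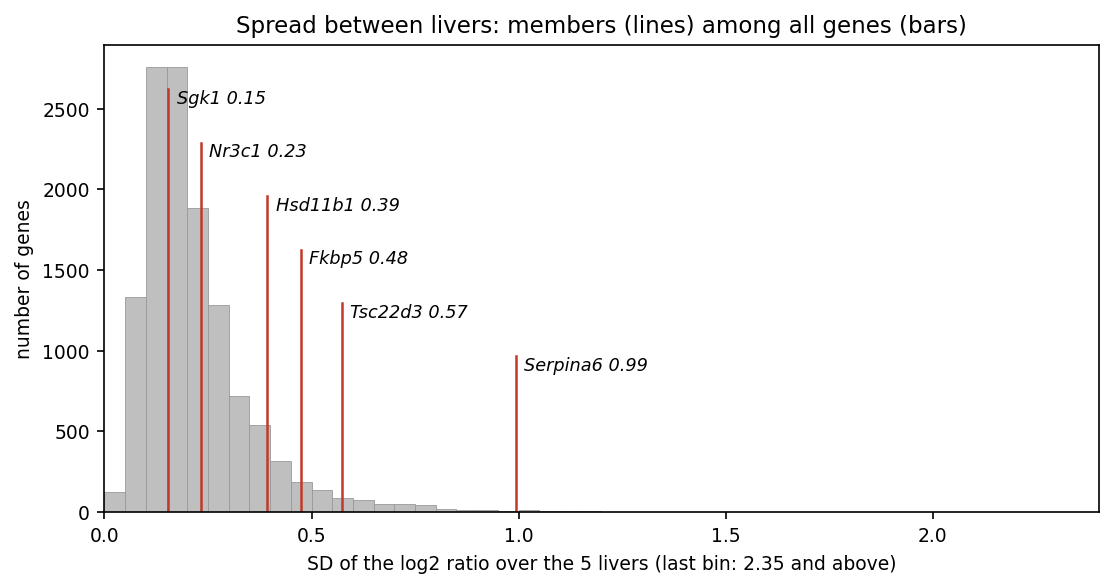
Number of genes (vertical axis) by the SD of their log2 ratio over the 5 livers (horizontal axis), for the 12451 genes clearly detected in both channels of every array. Red lines mark the 6 members with their SD. Serpina6 at 0.99 lies in the far tail and Sgk1 at 0.15 below the median of 0.19.

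Liver 3 held the highest ratio of 5 of the 6 members, Fkbp5 being the exception with its lowest, where 19.4% of all genes were highest in liver 3. For Sgk1 (-0.18 against -0.20 in liver 5) and Nr3c1 (0.10 against 0.02 in liver 4) that lead was smaller than the SD between repeated spots. Liver 1 held the lowest ratio of 3 members, Hsd11b1, Serpina6 and Nr3c1 at its brightest probe, where 20.7% of all genes were lowest there. At the Nr3c1 probes A_52_P254174 and A_51_P355693 liver 1 was instead the highest, at 0.17 and 0.46, at the second of them level with livers 2 to 4. The mean over the members was -0.69, -0.48, -0.06, -0.33 and -0.17 in livers 1 to 5. The genes whose centred ratios lay nearest to that mean profile were Cryz (root mean square difference 0.03 over 5 livers), Glrx5 (0.04) and Bri3 (0.04), where the median over all genes was 0.28.

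Single members had close neighbours too, which were looked up after their values had been seen. Ces1d (0.10) and Ces1f (0.18), 2 liver carboxylesterases, lay nearest to Serpina6, where the median difference over all genes was 0.90. Both were lowest in liver 1, at -2.93 and -3.08. Next came Cd74 (0.24), also lowest in liver 1, at -2.88. Nearest to Fkbp5 were Serpina3m (0.06), which encodes a serine protease inhibitor, Creb3l2 (0.07) and Gtf2a2 (0.08). Serpina3m read 1.13, 1.02, 0.02, 0.37 and 1.03, high in the same 3 livers as Fkbp5. Sufu (0.05), Vat1l (0.07) and Car14 (0.07) lay nearest to Hsd11b1. Tmem150a (0.09) and Fahd1 (0.09) lay nearest to Tsc22d3, followed by Fkbp4 (0.10), which is described next.

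Of 45 further genes of glucocorticoid action, 42 were tested; 7 stood below the reference and 0 above (limma adjusted p below 0.05), beside 12.7% and 14.2% of all genes, and their median was -0.15. The receptor's chaperones and its sister receptor had 1 of 8 tested genes below. That gene was Stip1, which encodes the co-chaperone that bridges HSP70 and HSP90, at -0.43 ± 0.09 (SD, n = 5, limma adjusted p = 0.00464). Fkbp4 encodes the immunophilin that Fkbp5 competes with in the complex, and it read -0.35, -1.59, -0.21, -0.40 and -0.49, with liver 2 far below the rest. Its adjusted p was 0.0501 by limma, and it passed under 5 alternatives. A second Fkbp4 probe had a mean of -0.04 and again its lowest value, -0.64, in liver 2, where 4 of 6 chaperone genes with full values were lowest, as were 28.9% of all genes. The highest of the list were Ppid, another immunophilin, at 0.12 and Nr3c2, the mineralocorticoid receptor, at -0.09, and neither passed. The 3 Nr3c2 probes lay on both sides of 0, and their average was 0.03. One of them, A_52_P264543, was above the reference in all 5 livers, at a mean of 0.36 (limma adjusted p = 0.00726 in the fit over all probes).

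Of 4 steroid-handling genes, 1 was below the reference. Srd5a1 encodes a 5-alpha-reductase that inactivates glucocorticoids, and it read -1.20, -1.63, 0.01, -0.73 and -0.86, a mean of -0.88 ± 0.61 (SD, n = 5, limma adjusted p = 0.0239). Liver 3 alone was level with the reference, as it was for Serpina6. With processed signals or deposited ratios the mean was -1.58 (limma adjusted p = 0.0175 and 0.0165). The call was lost with median centring (0.0835) and without liver 1 (0.0871), 4 (0.0683) or 5 (0.0647). H6pd, whose product supplies the NADPH that the Hsd11b1 enzyme needs, read 0.47, 0.56, -0.28 and 0.41 in livers 1, 2, 3 and 5, lowest in liver 3, where Hsd11b1 was highest. Its mean of 0.29 did not pass (limma adjusted p = 0.161), but without liver 3 it was 0.48 (0.0171). Hsd11b2, which inactivates glucocorticoid, and Akr1d1, a bile acid and steroid reductase, averaged -0.16 and -0.13 and did not pass.

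Of 7 receptor partners, 1 was below the reference. Ncoa2, a coactivator, was at -0.24 (limma adjusted p = 0.0447), but its other probes lay at 0.06 and -0.00 and the call was lost with probes averaged, with median centring and without any single liver. Ncoa1, another coactivator, was at -0.26 ± 0.18 (SD, n = 5) and below 0 in all livers, with an adjusted p of 0.052 by limma that lay between 0.04 and 0.104 over its alternatives. Cebpb, an acute-phase transcription factor, read -0.40, 0.62, -0.93, -0.79 and -0.73, above the reference only in liver 2, and without that liver its mean was -0.71 (limma adjusted p = 0.0066). Stat3, which relays interleukin-6, read 0.25, 0.88, -0.25, -0.15 and 0.48, above the reference in the same 3 livers as Fkbp5. Ncor1, a corepressor, was at -0.04.

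The rapid and stress-linked targets had their extremes in the same livers. Among the 13 of 15 genes well above background with values on all arrays, 11 had their lowest ratio in liver 3, where 18.2% of all genes did. In liver 2, where 23.3% of all genes were highest, 8 had their highest. For Rgs2 (-0.12 against -0.10 in liver 4) and Ddit4 (-0.80 against -0.78 in liver 4) the gap at liver 3 was smaller than the SD between repeated spots. The same held at liver 2 for Rgs2 (-0.03 against -0.07 in liver 1) and Orm1 (1.82 against 1.75 in liver 1). Mt1, a metallothionein, read 1.79, 2.61, -1.15, 0.79 and 2.05, and Orm1, an acute-phase plasma protein gene, read 1.75, 1.82, -0.55, 1.32 and 0.40. Both were above the reference in 4 livers and below it in liver 3. Their means of 1.22 and 0.95 did not pass (limma adjusted p = 0.153 and 0.102), but without liver 3 they were 1.81 (0.0076) and 1.32 (0.0123).

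Cdkn1a, the cell cycle inhibitor p21, read -0.47, 0.57, -2.41, -2.69 and 0.85, so livers 3 and 4 again lay apart from the others, and its SD of 1.65 was the largest of the list. Dusp1, a phosphatase that shuts off MAP kinases, was the only gene of the 15 to pass, at -0.94 ± 0.33 (SD, n = 5), or 1.92-fold below the reference in the test by limma (adjusted p = 0.00182). Its ratios were -1.08, -0.39, -1.27, -0.89 and -1.06, all below 0. With processed signals or deposited ratios the mean of Dusp1 was -1.32, past 2-fold (limma adjusted p = 0.00114 and 0.00123). The liver signal of its probe lay between 50.4 and 292.

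Liver 3 held the highest ratio of most members and the lowest of most of these targets. The count of 5 of 6 members highest in liver 3 held with processed signals, deposited ratios, median centring and arrays scaled to each other. It also held with probes averaged and outlier spots kept. With the filter on dim probes changed it was 4 of 5, over 12822 genes in place of 12451. There Tsc22d3 was read at A_51_P235821, which has no value in liver 3. The 11 of 13 targets lowest in liver 3 became 9 with processed signals, deposited ratios or scaled arrays and 7 with median centring, where 34.3% of all genes were highest and 5.77% lowest in that liver. The mean log2 ratio of the hepatocyte markers was also lowest in liver 3, at 0.50 against 0.94 to 1.32 in the others. By gene, Apoa1, Tf and Fgb were lowest there, while Alb, Ttr and Ahsg were not. The part of these markers in the values of liver 3 was not tested. The members' values in liver 3 are 1 sample, and no test of the difference between the lists was made.

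Of 8 tested metabolic targets, 3 stood below the reference, each by more than 2-fold, where 0.416% of all genes were called lower. Lpin1, a phosphatidate phosphatase and coactivator of fasting metabolism, read -2.15, -1.84, -1.52, -2.68 and -0.97 and was 3.56-fold below (limma adjusted p = 0.00323), with all 3 of its probes at means between -1.83 and -1.69. G6pc, the last enzyme of gluconeogenesis, read -2.81, -2.41, -0.12, -1.77 and -1.84, or 3.46-fold below (limma adjusted p = 0.0171), and liver 3 alone was near the reference. Its call was lost without liver 1 (0.0656) or 4 (0.0563).

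Pdk4, a brake on pyruvate dehydrogenase, was 2.28-fold below (limma adjusted p = 0.00229), with a liver signal between 9.6 and 79.7 that was well above background on 4 of 5 arrays. Its mean log2 ratio was -1.19 in this fit and -2.19 with processed signals or deposited ratios. Igfbp1, an insulin-like growth factor binding protein, read -0.38, 1.65 and -2.18 in livers 1 to 3, and Tdo2, the first enzyme of tryptophan breakdown, -0.16, 0.40 and -0.74. Both had no usable spot in livers 4 and 5, and neither passed. In the 3 livers with values, each was highest in liver 2 and lowest in liver 3.

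**Figure D4:**
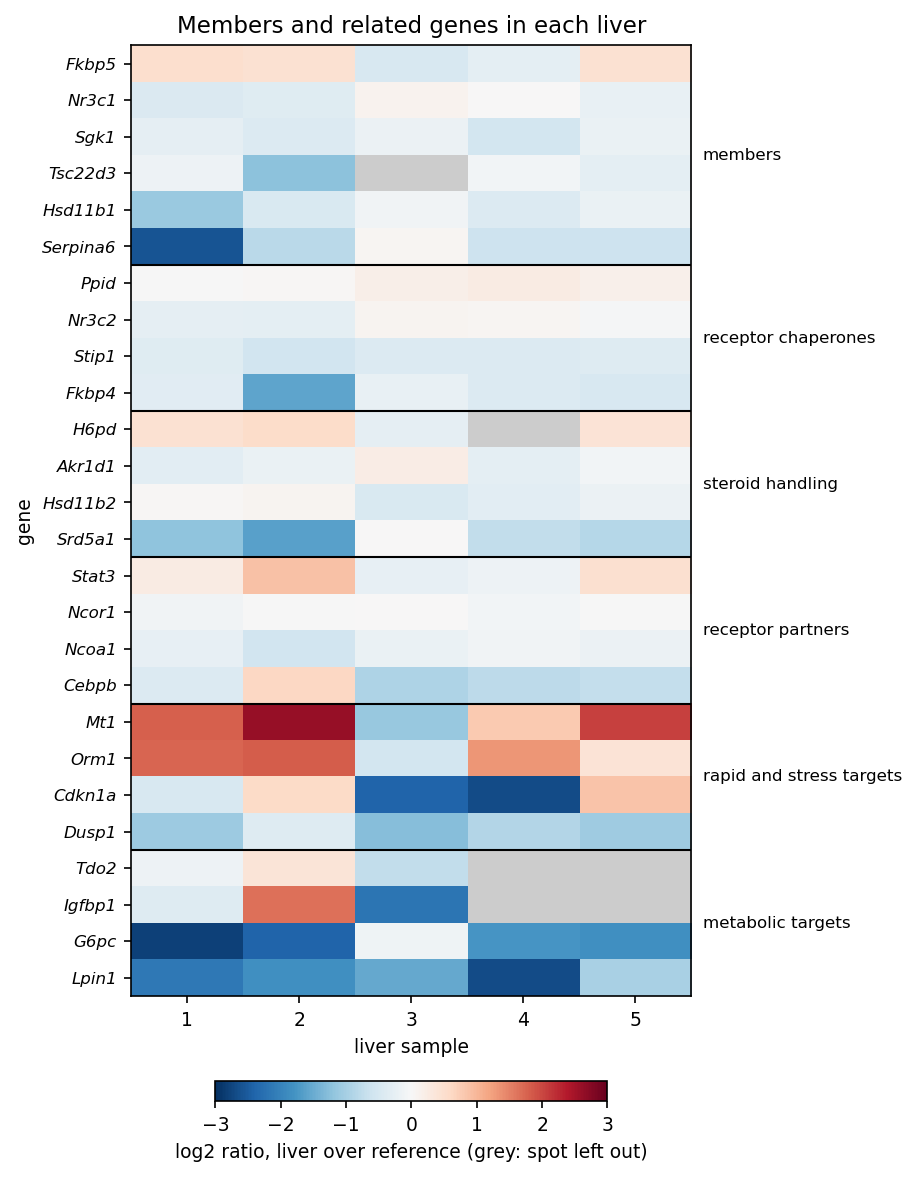
Log2 ratio of liver over reference (colour scale from -3 in blue to 3 in red) in each of the 5 livers (columns) for the 6 members and the 20 named genes of 5 related lists (gene names at the left, lists at the right). Grey cells are spots that were left out. Mt1 and Orm1 are red in every column except liver 3, and G6pc, Serpina6 and Srd5a1 are blue in every column except liver 3, where they lie near 0.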

How the data were processed

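The 7 members, the related lists and the tests were chosen with earlier results of these data known. Per the file headers, the authors scanned 45018 spots per array and deposited Agilent Feature Extraction 11.5.1.1 output: spot and local background intensity of the Cy5 and Cy3 channels, as median pixel values, not normalized. The same deposited files hold processed intensities and their log10 ratio. The authors' deposited table holds log2 ratios of 40599 probes. They matched the processed intensities' log2 ratio, liver over reference, to within 0.001 for 99.7% of values, which settles scale and direction, and its column medians of -0.10 to -0.03 show that it was not centred further. The headers name build mm8, so no coordinates of probes are given.

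Median intensities were background-corrected with normexp (offset 50) and normalized by loess in limma 3.58.1 (R 4.3.3), with control and outlier spots at weight 0 and then left out. Outliers were 2.32% to 4.05% of spots per array, and 0 spots were saturated. Probes well above background made up 77.3% to 81.2% of each array for Cy5 and 69.9% to 78.4% for Cy3. Precision is limited by the number of arrays. Probes were named by RefSeq accession (GRCm38.p6), and 24375 of 41174 matched 1 gene. A probe was tested with at least 3 values and either channel well above background on 3 or more arrays, and the brightest tested probe stood for its gene. Means were tested against 0 with limma (intercept only, intensity trend, robust prior, two-sided), and variances with an F test against the prior, upper tail. Levels of single channels were normalized with Aquantile. The rule for named genes took the members, the 2 highest, 2 lowest and most variable genes of each related list and the 3 genes nearest to the members' mean profile. Ncoa2 and Pdk4, which passed, and the neighbours of single members were named after their values were seen. One gene of the related lists is not reported here. The tests were checked on simulated data. Gene variances spread less there than here, so that check does not give the power of the variance test in these data.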

Additional observations from a re-analysis of the deposited data

Results flagged for a closer look

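Of 39 sets of 5 or 4 liver values checked for a sample far from the rest, 4 had one, and chance gives about 1 in 20. At the Nr3c1 probe A_51_P355693, liver 5 read a log2 ratio of 0.18, while the others reached up to 0.46. Stip1 was lowest in liver 2, at -0.59, with the others between -0.40 and -0.37. Fkbp4, the immunophilin gene, was at -1.59 in liver 2 and no lower than -0.49 elsewhere. The mean of the red blood cell markers was -1.50 in liver 1, the liver in which Serpina6 and Hsd11b1 were also lowest.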

How the results depend on the processing

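Of 78 alternative values of the members' means, 70 kept their direction and side of the threshold, 5 lost the call, 2 gained one and 1 turned, which was Fkbp5 (also probe A_52_P481493) at -0.017 with median centring. For the member probes, 132 of 144 values were unchanged in this sense, and for the related genes 249 of 280, with Nr3c2 and Ncor1 turning to 0.033 (both) with probes averaged. With no minimum ratio, 2 members passed, and this was 1 with arrays scaled and 0 to 3 when a liver was left out, while 4 member probes became 1 to 6. At 2-fold, 0 member probes became at most 1, without liver 3. Genes past 2-fold numbered 190, against 474 with processed signals and 476 with deposited ratios. Higher calls made up 67.4% of them, against 55.8% with median centring and 57.4% with probes averaged. With no minimum ratio the 4016 genes past the threshold became 2201 to 3237 when a liver was left out. Genes past the variance test numbered 223, 1 member among them (Serpina6, adjusted p = 0.00718 by the limma prior), with median centring, and 1294 with 4 members with the prior as a fixed value, an alternative added after seeing the data. The cause of these changes was not tested. No paired analysis was possible because all 5 samples form 1 group. The slide as a block could not be run, since each of the 5 slides held 1 array.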
